A study of Mus musculus with 8 samples.

Results

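Binding of the transcription factor subunit NF-YA at 59 genes of muscle stem cells and of muscle differentiation was examined in cultured muscle stem cells (MuSCs). The genes were taken from a fixed list, chosen with earlier results of these data known. A peak counted as theirs when the deposited table of NF-YA peaks gave it that gene symbol. This rule found 26 of 7196 peaks, which belonged to 19 of the 59 genes. Of the 59 genes, 30 were classed as stem cell regulators and markers, and they held 16 peaks at 11 genes. The other 29 were classed as differentiation and contractile genes, and they held 10 peaks at 8 genes.

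NF-Y is a trimer in which NF-YA recognises the pentamer CCAAT, while NF-YB and NF-YC carry histone-like folds. It is found at the promoters of many genes of cycling cells. MuSCs are marked by the paired-box factors *Pax3* and *Pax7*, enter the muscle programme through *Myf5* and *Myod1*, and differentiate under *Myog*, *Myf6* and the Mef2 factors, which act on genes of fusion, contraction and the muscle membrane.

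The study asked how loss of *Taf4a* (annotated as *Taf4*), a subunit of the general transcription factor TFIID, affects such binding. CUT&RUN, in which an antibody guides a nuclease that cuts out the bound DNA, was performed with 2 NF-YA libraries of control MuSCs and 2 of Taf4asKO MuSCs. IgG libraries of both genotypes, 2 each, were not analysed here. Taf4asKO mice were Pax7CE+/p with Taf4a fl/fl and received tamoxifen, so that the Cre driven by *Pax7* removed 2 adjacent exons of *Taf4a* in MuSCs. Controls were littermates that were Pax7CE+/+ or Pax7CE+/p, also with Taf4a fl/fl, and the study does not say which of these gave the control libraries, whose titles read WT. Both groups were adult C57BL/6 mice, and either genotype could carry a Pax7 Zs green reporter. The cells were sorted and cultured before the assay, and the labels give their state as activated/proliferating. The labels do not say whether replicates came from separate animals or cultures, and p-values therefore measure only the spread between these samples, which may be technical.

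Values are reads per peak after normalisation by the authors, rounded to whole numbers, so they have no unit beyond normalised reads. Reads in peaks ranged from 111269 to 351696 in the control libraries and from 505389 to 735063 in the Taf4asKO libraries, and depth and genotype cannot be told apart. A value of 1 read was 1.04 and 3.26 in control replicates 1 and 2, and 0.431 and 0.681 in Taf4asKO replicates 1 and 2, so weak control values rest on few reads. In *Taf4* itself, 7 peaks lay over exons and held values of 29 to 417 in control and 3 to 62 in Taf4asKO, but none of these exons was among the deleted ones, and the values do not measure the deletion. Peaks were assigned to 2 of 5 MuSC markers (*Myod1* and *Cdh15*), to 1 of 4 fibro-adipogenic markers (*Col1a1*, at 17 and 10 in the control libraries and 6 and 10 in the Taf4asKO libraries), and to 0 of 3 endothelial and 0 of 3 blood markers. NF-YA binding is not a measure of expression, so these markers do not test the cell type.

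The sequences under the peaks on which the results turn are shown first. They were read from GRCm38 (mm10), 5′ to 3′ on the strand of the gene, around the peak centre and without annotated UTRs. Capitals mark CCAAT, or ATTGG where the pentamer lies on the opposite strand. The first 8 lie at or just upstream of gene starts and the others at a distance, and the 6 tested peaks past 2-fold between genotypes are among them.
Myod1, start, chr7:46376370-46376473, plus strand: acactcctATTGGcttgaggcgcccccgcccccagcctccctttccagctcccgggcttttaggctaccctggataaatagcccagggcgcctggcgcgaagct
Mef2d, start, chr3:88142266-88142371, plus strand: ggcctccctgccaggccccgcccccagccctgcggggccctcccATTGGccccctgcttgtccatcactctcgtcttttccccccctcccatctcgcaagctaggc
Pax3, start, chr1:78197145-78197264, minus strand: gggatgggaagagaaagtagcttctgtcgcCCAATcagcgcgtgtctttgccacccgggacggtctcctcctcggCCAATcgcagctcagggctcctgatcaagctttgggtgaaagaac
Six4, start, chr12:73113457-73113512, minus strand: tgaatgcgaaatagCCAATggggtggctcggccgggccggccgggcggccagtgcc
Tcf3, upstream of the start, chr10:80433992-80434111, minus strand: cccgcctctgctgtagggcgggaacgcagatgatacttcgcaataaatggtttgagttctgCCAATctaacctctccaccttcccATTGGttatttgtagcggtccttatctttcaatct
Myh9, upstream of the start, chr15:77842383-77842502, minus strand: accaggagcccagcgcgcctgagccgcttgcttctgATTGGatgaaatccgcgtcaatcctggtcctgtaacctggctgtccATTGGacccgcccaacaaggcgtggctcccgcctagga
Dag1, start, chr9:108263959-108264056, minus strand: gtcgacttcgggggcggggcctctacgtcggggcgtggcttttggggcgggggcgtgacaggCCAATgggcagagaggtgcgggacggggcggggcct
Tnnt3, start, chr7:142498721-142498835, plus strand: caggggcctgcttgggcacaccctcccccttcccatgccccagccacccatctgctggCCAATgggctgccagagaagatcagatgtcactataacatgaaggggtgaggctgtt
Myod1, distal, chr7:46380655-46380774, plus strand: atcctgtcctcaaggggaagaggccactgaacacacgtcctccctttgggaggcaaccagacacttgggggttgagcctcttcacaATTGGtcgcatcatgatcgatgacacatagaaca
Mef2d, distal, chr3:88140315-88140434, plus strand: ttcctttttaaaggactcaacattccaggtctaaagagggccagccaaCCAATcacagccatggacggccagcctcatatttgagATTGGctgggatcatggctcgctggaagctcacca
Mymk, intron, chr2:27069823-27069942, minus strand: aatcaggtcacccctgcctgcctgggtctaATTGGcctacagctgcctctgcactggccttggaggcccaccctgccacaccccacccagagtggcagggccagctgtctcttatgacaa
Cdh15, intron, chr8:122851685-122851804, plus strand: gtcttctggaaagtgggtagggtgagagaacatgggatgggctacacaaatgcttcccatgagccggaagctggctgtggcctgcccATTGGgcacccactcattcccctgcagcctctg
Id3, distal, chr4:136140419-136140538, plus strand: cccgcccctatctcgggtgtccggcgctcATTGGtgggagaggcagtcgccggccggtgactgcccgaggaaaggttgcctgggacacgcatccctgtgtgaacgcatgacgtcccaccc
Sgca, distal, chr11:94983009-94983128, minus strand: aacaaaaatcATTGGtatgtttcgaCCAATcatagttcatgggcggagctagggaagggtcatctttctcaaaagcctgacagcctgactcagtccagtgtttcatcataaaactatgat

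The pentamer CCAAT occurred on either strand in 22 of 26 windows of 200 bases around the peak centre (84.6%, with Wilson bounds of 66.5% and 93.8% at 95% confidence), compared with 78.5% of all 7196 peaks. The share was 81.2% for the 16 stem cell peaks, while 9 of the 10 differentiation peaks held it, and the share was 84.6% both within 1000 bases of the start (all such peaks 87.1%) and beyond (71.7%). Where the mean value was at least 10, it was 95.2% of 21 peaks, and among the 5 weaker peaks 2 held it. Of all peaks with a mean under 10, 65.3% held CCAAT, below the share over all peaks. The 4 peaks without CCAAT in the window were the weaker ones of *Pax3* and *Tnnt3*, the only one of *Sdc4*, and the middle one of 3 at *Ncam1*. Inside the called peaks, which can be narrower than the window, CCAAT occurred in 20 of 26 (76.9%, all peaks 75.8%). The peaks of *Id1* and *Tpm2* held it in the window but not inside the called peak. At least 2 copies were found in the windows of 10 peaks (38.5%, all peaks 36.4%). The smallest distance between neighbouring copies in these 10 ranged from 6 to 102 bases with a median of 34.5, compared with a median of 39.0 over 2616 such peaks. In the upstream *Mef2d* peak the copies lay 37 bases apart on opposite strands, in the *Pax3* peak 45 bases apart on the same strand, and in the *Tcf3* peak 24 bases apart on opposite strands.

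**Figure D1:**
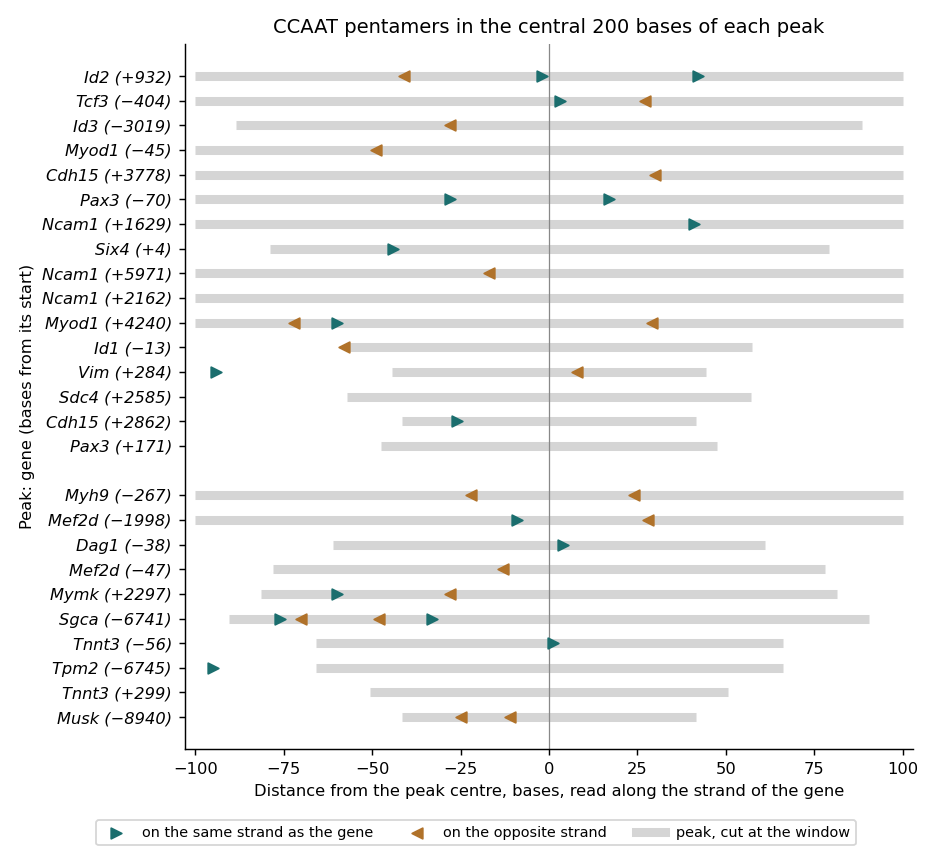
Position of each CCAAT pentamer in the central 200 bases of the 26 peaks, in bases from the peak centre along the strand of the gene. Arrows give the strand, grey bars the peak (wide peaks end at the window), and the upper block holds stem cell regulators. 22 of the 26 rows hold at least 1 arrow.

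At 8 genes with a peak across the start, at least 1 pentamer lay within 100 bases upstream of it. It was centred 94 bases upstream at *Myod1*, 60 at *Mef2d*, 71 at *Id1*, 55 at *Tnnt3*, 40 at *Six4* and 34 at *Dag1*. The *Id1* copy crosses the edge of the called peak. *Pax3* held copies at 53 and 98 bases upstream. The pentamer was on the opposite strand at *Myod1*, *Mef2d* and *Id1*, and on the strand of the gene at *Tnnt3*, *Six4*, *Dag1* and *Pax3*. *Myh9* held copies at 77, 243 and 289 bases upstream, each of them on the opposite strand. At *Vim* and *Id2* the copies lay downstream of the assigned start, at 190 and 292 bases in *Vim* and between 778 and 974 in *Id2*. The *Vim* copy at 190 bases lay in the window but outside the called peak.

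3 other motifs were searched on both strands of the same windows. GGGCGG, the GC box, was present in 42.3% of the 26 peaks (all peaks 27.8%), and in 61.5% of the 13 peaks within 1000 bases of a start, where the share over all such peaks was 54.5%. CAGCTG, an E-box read by the MyoD family, was present in 23.1% (all peaks 20.3%). It was found in 4 of the 5 peaks with a mean under 10, compared with 25.3% of all such peaks. TGANTCA, the AP-1 motif, was present in 4 peaks (15.4%, all peaks 23.9%), namely 0 of 16 stem cell peaks and 4 of 10 differentiation peaks. Of these 4 peaks, 3 lay beyond 1000 bases and 2 had a mean under 10. Among all assigned peaks the share was 5.69% within 1000 bases and 32.5% beyond. It was 36.7% of all peaks with a mean under 10. The classes were not compared at equal position or level. A match only describes the letters in the window.

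The promoter table of RefSeq (GRCm38 here, 250 bases before to 50 after each start) held 46 of the 59 genes. Of the 11 genes with a peak within 1000 bases, *Myod1*, *Pax3*, *Id1* and *Tnnt3* were not matched and are not in the counts that follow. Of the 46 matched genes, 16 had CCAAT in the promoter (34.8%, all genes 41.1%). A peak lay within 1000 bases of the assigned start in 6 of these 16 genes (37.5%, all genes with CCAAT 14.4%) and in 1 of the 30 genes without it (3.33%, all such genes 1.67%). The 6 genes were *Dag1*, *Id2*, *Mef2d*, *Myh9*, *Six4* and *Vim*, and the 1 gene was *Tcf3*, whose copies under the peak lie further upstream than this window. CCAAT with no peak assigned within 1000 bases was found in *Actc1*, *Cdh15*, *Dysf*, *Igf2*, *Mef2c*, *Myl4*, *Spry1*, *Tcf12*, *Tnnt2* and *Tpm1*, although *Mef2c* held an unassigned peak near an alternative start.

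An assigned peak was present at 32.2% of the 59 genes, compared with 14.6% of 21951 protein-coding genes. Within 1000 bases of the assigned start the shares were 18.6% (11 genes) and 10.7%. The list was chosen with earlier results of these data known, and the coding genes include all annotated ones, active in MuSCs or not. These shares are therefore a description, and the difference was not tested. The stem cell class had a peak at 36.7% of its genes and within 1000 bases at 23.3%, and the differentiation class at 27.6% and 13.8%. Most of the bound genes, 13 of 19, had 1 peak, while *Pax3*, *Myod1*, *Cdh15*, *Mef2d* and *Tnnt3* had 2 each and *Ncam1* had 3. Of the 26 peaks, 13 were more than 1000 bases from the start, compared with 41.1% of all peaks with an assigned gene.

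40 genes had no assigned peak. In the stem cell class these were the regulators *Pax7*, *Myf5*, *Eya1* and *Eya4*, the E proteins *Tcf4* and *Tcf12*, the signalling genes *Spry1*, *Spry2*, *Chrd* and *Igf2*, the receptors *Calcr*, *Cxcr4*, *Met* and *Megf10*, the surface genes *Cd34*, *Vcam1*, *Sdc3* and *Cdh2*, and the intermediate filament gene *Nes*. In the differentiation class these were *Myog*, *Myf6*, *Mef2a* and *Mef2c* among the regulators, the fusion gene *Mymx*, the contractile and metabolic genes *Acta1*, *Actc1*, *Myh3*, *Myl4*, *Tnnt1*, *Tnnt2*, *Tpm1* and *Ckm*, the filament gene *Des*, the membrane genes *Sgcb*, *Sgcd*, *Dmd*, *Utrn*, *Dysf* and *Cav3*, and the acetylcholine receptor gene *Chrna1*. Of the 4 myogenic bHLH factors *Myf5*, *Myod1*, *Myog* and *Myf6*, *Myod1* was thus the one with an assigned peak. The table holds only called peaks, and absence of a peak does not show absence of binding.

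9 of the 40 genes held peaks in the gene body that the table did not assign to them, and 31 held none there or within 10000 bases of any of their annotated starts. The *Pax7* peak was intronic, with values of 9 and 20 in the control libraries and 12 and 10 in the Taf4asKO libraries. The *Mef2c* peak lay 369 bases from an alternative start of the gene, with values of 9 and 3 in the control libraries and 13 and 18 in the Taf4asKO libraries, and held CCAAT. In *Ckm*, the muscle creatine kinase gene, the peak was assigned to another gene that starts inside it, with values of 32 and 26 in the control libraries and 32 and 44 in the Taf4asKO libraries. *Eya4* and *Met* held 2 such peaks each, and *Tcf4*, *Tcf12*, *Megf10* and *Utrn* 1 each, with values from 3 to 27. *Ncam1* and *Myh9*, which had assigned peaks, held 2 and 1 more. Of these 14 peaks 9 were tested and 0 were called in limma at an adjusted p under 0.05 (0.948% of all tested peaks were). At an unadjusted p under 0.05 there were 3 (17.9% of all tested peaks), with log2 differences of -1.24 in *Utrn*, -0.94 in *Ncam1* and 1.37 at *Mef2c*. The difference at *Mef2c* was 0.71 without control replicate 2 and 2.03 without control replicate 1.

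**Figure D2:**
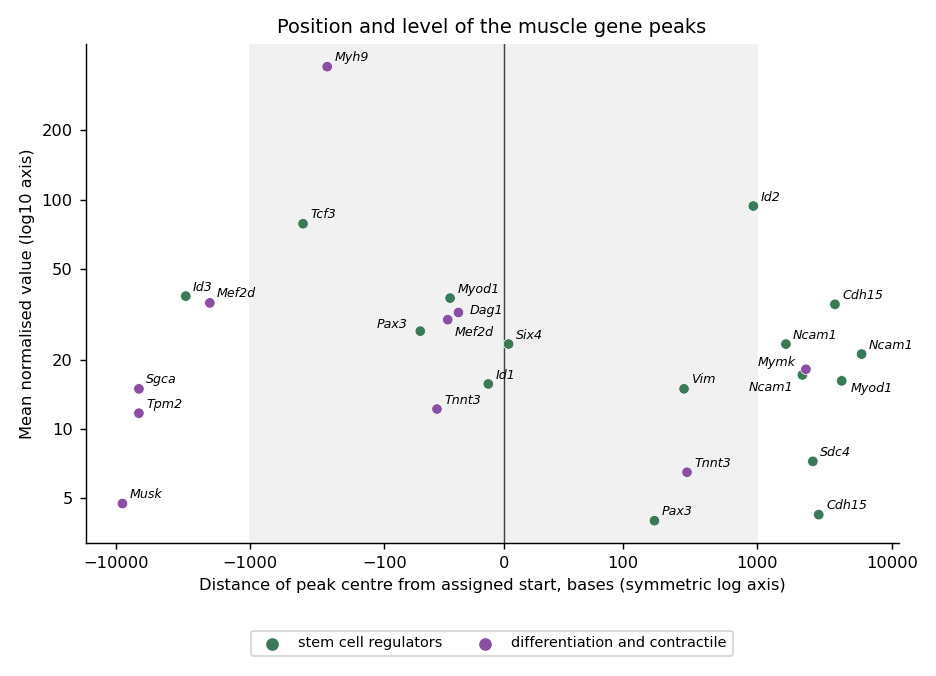
Mean normalised value of the 4 libraries (log10 axis) against the distance of the peak centre from the assigned start (symmetric log axis, negative is upstream) for the 26 peaks. The shaded band marks 1000 bases to either side. 13 peaks lie in the band, and 1 of them (*Myh9*) has a mean of at least 100.

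NF-YA signal at these genes was near the middle of all peaks, and below that of most peaks near a start. The mean of the 4 libraries ranged from 4 to 379 with a median of 19.75, compared with 17.25 over all peaks and 26.625 over peaks with an assigned gene. For peaks within 1000 bases of a start the medians were 26.75 for the muscle genes and 51.0 for all 2776 such peaks. A mean of at least 100 was reached by 1 of the 13 near peaks, compared with 28.6% of all near peaks. Per 100 bases of peak width, the mean value was 69.9 at *Myh9*, 28 at *Tcf3*, 27.3 at *Id2*, 26.4 at *Dag1* and 21.5 at *Id3*. It was below 20 at each of the other peaks assigned to a muscle gene.

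Between the genotypes, 21 of the 26 peaks passed the minimum mean of 10 and were tested with limma on log2(value + 1) across all 4746 such peaks, a scale that understates the differences of low peaks. 0 of the 21 were called at an adjusted p under 0.05 (0.948% of all tested peaks were). At an unadjusted p under 0.05 there were 4, of which 3 were lower and 1 higher in Taf4asKO (17.9% of all tested peaks in either direction, 10.9% lower and 6.95% higher). 6 peaks differed by more than 2-fold in group means, against 7.42% of all peaks above the minimum, and 5 of them were lower (3.13%) and 1 higher (4.29%). The lower ones were both *Myod1* peaks, *Cdh15*, *Mymk* and *Tnnt3*, and the higher one was the upstream *Mef2d* peak. The number past 2-fold was 3 without Taf4asKO replicate 2, 3 with libraries scaled to equal totals, 1 after centring on strong peaks and 0 when both replicates of each genotype had to differ by this much. For these alternatives the share of all peaks was not counted. The values of the 2 genotypes did not overlap at 9 peaks, 7 lower and 2 higher in Taf4asKO (47.9% of all tested peaks in either direction, 28.6% and 19.3% in each). The median log2 difference, Taf4asKO minus control, was -0.27 for the 21 peaks and -0.04 for all tested peaks. It was -0.32 for the 13 stem cell peaks and 0.12 for the 8 differentiation peaks, an order not shared by a wider list of muscle genes. Weighting each value by its reads gave a median of -0.10 for the 21 peaks and -0.06 for all.

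**Figure D3:**
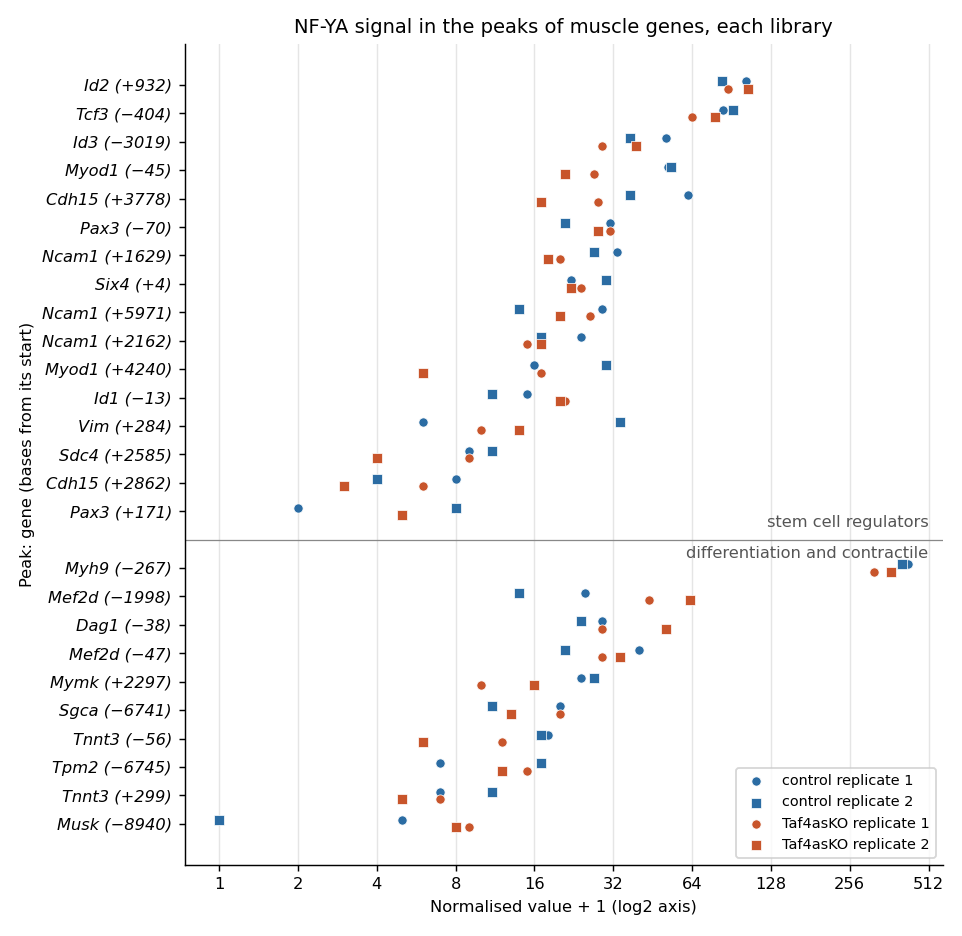
Normalised value plus 1 (log2 axis) of each of the 26 peaks in each of the 4 libraries, with stem cell regulators above the line and differentiation and contractile genes below, each sorted by mean. Numbers after the gene names are bases from the assigned start. Both control values exceed both Taf4asKO values at 7 peaks, namely *Myod1* (−45), *Cdh15* (+3778), *Mymk*, *Tnnt3* (−56), *Myh9*, *Tcf3* and *Ncam1* (+1629), and the reverse holds for *Mef2d* (−1998), *Id1* and the untested *Musk*. Among all tested peaks the groups did not overlap at 47.9% (28.6% lower and 19.3% higher in Taf4asKO).

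*Myod1*, the bHLH factor that commits activated MuSCs to the muscle lineage, had a peak across its start on chromosome 7 (chr7:46376267-46376591, centre 45 bases upstream). Its values were 51 and 52 in the control libraries and 26 and 20 in the Taf4asKO libraries. The control values were close to each other, and both lay well above the Taf4asKO values. They correspond to about 49 and 16 reads in control and 60.3 and 29.4 in Taf4asKO. The log2 difference was -1.14 (SE 0.26, limma adjusted p = 0.0812), the lowest of the 21 tested peaks in this fit but within its error of that at *Cdh15* (-1.13), which was lower with weights from the reads (-1.24 against -1.11). The adjusted p was 0.0425 after scaling to equal medians and 0.0234 with weights from the reads, and over all alternatives it ranged from 0.0234 to 0.744.

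The other *Myod1* peak, 4240 bases downstream of the start, had values of 15 and 29 in the control libraries and 16 and 5 in the Taf4asKO libraries. The groups overlapped, and the spread within each genotype was wide. Its log2 difference was -1.12 (SE 0.54, limma adjusted p = 0.310), and it was -0.37 without Taf4asKO replicate 2 and -1.87 without Taf4asKO replicate 1.

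*Pax3*, which specifies muscle progenitors, had a peak at its start on chromosome 1 (chr1:78197088-78197321) with values of 30 and 20 in the control libraries and 30 and 27 in the Taf4asKO libraries. The groups overlapped, and the limma adjusted p was 0.737. A weaker neighbouring peak ranged from 1 to 7 and was not tested. *Six4*, a homeobox factor acting upstream of the myogenic factors, had values of 21 and 29 in the control libraries and 23 and 21 in the Taf4asKO libraries at its start (chr12:73113374-73113531). Its groups overlapped too, with an adjusted p of 0.807.

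The 3 stem cell peaks with the highest means were those of *Id2*, *Tcf3* and *Id3*, a partner and 2 inhibitors of the myogenic factors, while the inhibitor *Id1* had a weaker one. *Tcf3* encodes E proteins that pair with MyoD. Its peak 404 bases upstream (chr10:80433912-80434191) had values of 83 and 91 in the control libraries and 63 and 77 in the Taf4asKO libraries. Both control values were higher, by a log2 difference of -0.32 (SE 0.20, limma adjusted p = 0.410) that did not pass the test. With equal totals it was -0.17, and after centring on strong peaks -0.09.

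The Id proteins bind E proteins but not DNA and so hold back MyoD. At *Id2* the peak was 932 bases downstream of the assigned start and 116 from another annotated start (chr12:25096037-25096379), with values of 102 and 82 in the control libraries and 87 and 104 in the Taf4asKO libraries. The log2 difference was 0.06 (SE 0.19, limma adjusted p = 0.902), and the groups overlapped. At *Id3*, 3019 bases upstream of the start (chr4:136140390-136140566), values were 50 and 36 in the control libraries and 28 and 38 in the Taf4asKO libraries, again with overlap (adjusted p = 0.490). At *Id1*, across the start (chr2:152736181-152736295), values were 14 and 10 in the control libraries and 20 and 19 in the Taf4asKO libraries. Here both Taf4asKO values were higher, with a log2 difference of 0.67 (SE 0.37, limma adjusted p = 0.357).

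*Cdh15* encodes M-cadherin, an adhesion protein of MuSCs. Its main peak lay in an intron 3778 bases downstream of the start (chr8:122851629-122851859), with values of 61 and 36 in the control libraries and 27 and 16 in the Taf4asKO libraries. The control values were both higher, although each genotype spread widely. The log2 difference was -1.13 (SE 0.34, limma adjusted p = 0.142). With weights from the reads the adjusted p was 0.0363, and over all alternatives it ranged from 0.0363 to 0.744. The weaker *Cdh15* peak ranged from 2 to 7 and was not tested.

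*Ncam1*, a neural cell adhesion molecule also carried by muscle cells, had 3 intronic peaks on chromosome 9 between 1629 and 5971 bases from the start. The one nearest to the start had values of 32 and 26 in the control libraries and 19 and 17 in the Taf4asKO libraries, without overlap (limma adjusted p = 0.283). The other 2 overlapped between genotypes, with values from 13 to 28. *Vim* (vimentin, an intermediate filament of proliferating cells) had values of 5 and 33 in the control libraries and 9 and 13 in the Taf4asKO libraries, and the control replicates differed more from each other than from Taf4asKO. *Sdc4*, a surface proteoglycan of MuSCs, had an intronic peak with values of 8 and 10 in the control libraries and 8 and 3 in the Taf4asKO libraries, below the minimum for testing.

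Among the differentiation genes, the 2 peaks of *Mef2d*, a MADS-box factor of muscle genes, were unlike each other. The peak 1998 bases upstream of the start (chr3:88140232-88140516) had values of 24 and 13 in the control libraries and 43 and 62 in the Taf4asKO libraries. Both Taf4asKO values exceeded both control values. They correspond to about 23.1 and 3.99 reads in control, and to 99.8 and 91.0 in Taf4asKO. The log2 difference of 1.49 (SE 0.34, limma adjusted p = 0.0819) was the largest increase among the 21 tested peaks.

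For this upstream peak the adjusted p was 0.0377 after scaling to equal medians, 0.042 with equal totals, 0.0317 after centring on strong peaks and 0.0245 with weights from the reads, and over all alternatives it ranged from 0.0245 to 0.744. The peak at the *Mef2d* start (chr3:88142248-88142403) had values of 39 and 20 in the control libraries and 28 and 33 in the Taf4asKO libraries. These overlapped, with a log2 difference of 0.12 (SE 0.34, adjusted p = 0.883). The difference between the 2 peaks was not tested.

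*Mymk* encodes myomaker, a membrane protein needed for myoblast fusion. Its intronic peak (chr2:27069801-27069963, 2297 bases from the start) had values of 23 and 26 in the control libraries and 9 and 15 in the Taf4asKO libraries. The groups did not overlap. The log2 difference was -1.01 (SE 0.37, limma adjusted p = 0.200). Its fusion partner *Mymx* had no peak.

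*Myh9* had by far the strongest signal in the list. It encodes a nonmuscle myosin heavy chain that all cells use, not a sarcomeric one. The peak 267 bases upstream of its start (chr15:77842172-77842713) had values of 428 and 404 in the control libraries and 316 and 368 in the Taf4asKO libraries. Both control values were higher, with a log2 difference of -0.29 (SE 0.13, limma adjusted p = 0.278). An intronic peak of *Myh9* that the table did not assign to it had values of 108 and 85 in the control libraries and 77 and 80 in the Taf4asKO libraries.

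Of the sarcomeric genes, *Tnnt3* (fast skeletal troponin T) and *Tpm2* (beta-tropomyosin) had peaks. The *Tnnt3* peak across the start (chr7:142498715-142498846), which also lies within the gene *Prr33*, had values of 17 and 16 in the control libraries and 11 and 5 in the Taf4asKO libraries. The groups did not overlap, and the limma adjusted p was 0.285 with a log2 difference of -1.04 (SE 0.48). This difference was -0.54 without Taf4asKO replicate 2 and -1.54 without Taf4asKO replicate 1. A second, weaker peak there ranged from 4 to 10. *Tpm2* had a peak 6745 bases upstream with values of 6 and 16 in the control libraries and 14 and 11 in the Taf4asKO libraries, which overlapped.

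In the membrane complex that links the cytoskeleton to the matrix, *Dag1* (dystroglycan) and *Sgca* (alpha-sarcoglycan) had peaks. At the *Dag1* start (chr9:108263936-108264057) values were 28 and 23 in the control libraries and 28 and 50 in the Taf4asKO libraries, a log2 difference of 0.54 (SE 0.32, limma adjusted p = 0.385). It was 0.14 without Taf4asKO replicate 2 and 0.95 without Taf4asKO replicate 1. At *Sgca*, 6741 bases upstream, values were 19 and 10 in the control libraries and 19 and 12 in the Taf4asKO libraries, with overlap. *Musk*, the receptor kinase of the neuromuscular junction, had a peak 8940 bases upstream with 4 and 0 in the control libraries and 8 and 7 in the Taf4asKO libraries, too weak for the test.

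**Figure D4:**
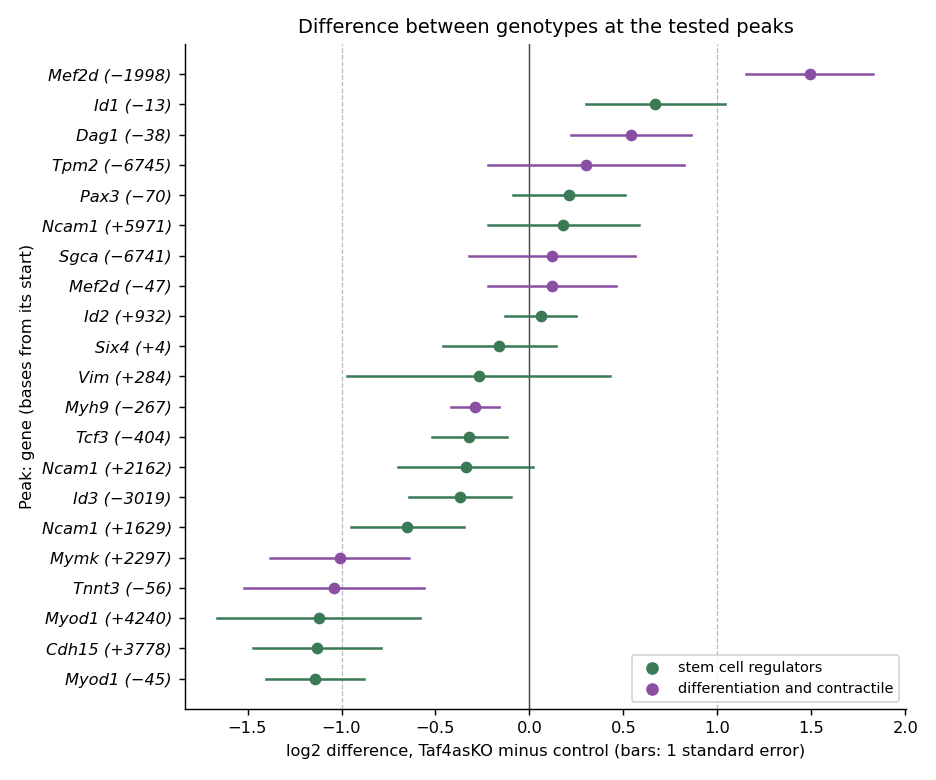
Log2 difference, Taf4asKO minus control, with 1 standard error from limma for the 21 tested peaks, coloured by class. Dashed lines mark 2-fold. The upstream *Mef2d* peak (1.49) is highest and the *Myod1* start peak (-1.14) lowest, and none of the 21 was called.

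**Figure D5:**
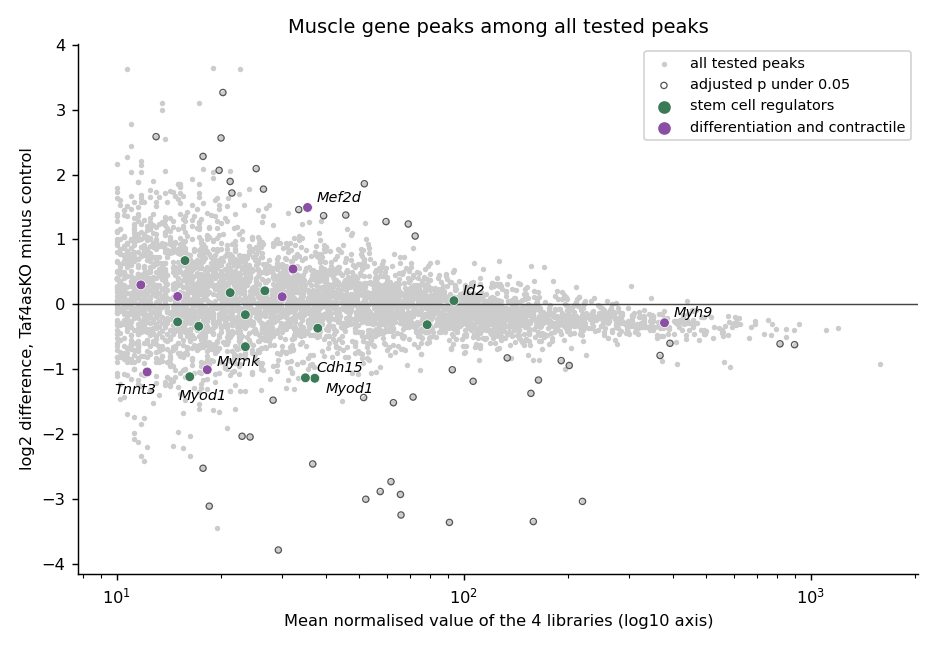
Log2 difference against mean normalised value (log10 axis) for all 4746 tested peaks (grey), peaks with a limma adjusted p under 0.05 (open circles) and the 21 peaks of muscle genes (coloured by class). Of the 21 muscle gene peaks 0 are circled, and 5 lie below −1 and 1 above 1.

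A wider list held 26 more stem cell genes and 54 more differentiation and contractile genes. A peak was assigned to 10 of the 26 (38.5%) and to 10 of the 54 (18.5%). 11 and 9 of their peaks were tested, and 0 were called by limma (0.948% of all tested peaks). At an unadjusted p under 0.05 there were 6 of 20, against 17.9% of all tested peaks (10.9% lower, 6.95% higher). *Cd82* was higher and *Gas1* lower in the stem cell list, and *Flnc* was higher and *Mylpf*, *Ttn* and *Atp2a1* lower in the differentiation list. The median log2 difference was -0.20 for the 11 stem cell peaks and -0.40 for the 9 differentiation peaks, and past 2-fold 0 of 11 and 3 of 9 were lower (3.13% of all peaks) and 1 of 11 and 1 of 9 higher (4.29%). Apart from *Mylpf*, the genes here were named after their values were seen.

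The 3 strongest peaks of the wider list were near starts. *Mylpf*, a fast muscle myosin light chain gene, had values of 640 and 620 in the control libraries and 469 and 533 in the Taf4asKO libraries, without overlap and with a log2 difference of -0.33 (limma adjusted p = 0.178). *Chrnb1*, an acetylcholine receptor subunit gene, had 194 and 166 in the control libraries and 135 and 159 in the Taf4asKO libraries (adjusted p = 0.366). *Hes1*, a Notch target, had 110 and 91 in the control libraries and 99 and 104 in the Taf4asKO libraries (adjusted p = 0.961), with overlap.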

How the data were processed

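CUT&RUN reads were trimmed with Trimmomatic 0.39 and aligned to mm10 with STAR (2.7.11a in the submitters' processing notes), and duplicates were removed with Picard 3.1.1. The authors called peaks with MACS against IgG, merged them, counted reads and normalised with DESeq2. The deposited table gives this score, rounded to whole numbers, and the nearest gene with a start within 10000 bases. Gene assignment was checked against GENCODE M21, where symbol and gene ID found the same 26 peaks. The members, lists and rules were chosen with earlier results of these data known. All 59 genes are named, each by its strongest peak, and full statistics were set for the 3 strongest peaks and the largest increase and decrease. Those of other peaks were added with their values known.

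The worth of 1 read was found from the spacing of the values. In the Taf4asKO libraries it was below 1, so whole reads could not be recovered and no count model was run. Genotypes were compared with limma 3.58.1 (R 4.3.3, trend) on log2(value + 1) for peaks averaging at least 10, with Benjamini-Hochberg adjustment over 4746 peaks. In simulated data, 159 of 199 tested peaks changed by 2 on the log2 scale were called and 1 unchanged peak was, out of 4720 tested in all. The spread between simulated libraries was assumed, not estimated from these libraries. A change of 2 is larger than that at any tested muscle gene peak. The simulation therefore does not give the power for differences of the size seen here. A single exact permutation test of 2 against 2 cannot go below 0.333. Windows, motifs and shares were computed with Python 3.11.15, and intervals cover counting error only. Alternatives were other scalings, thresholds, windows, weights, a replicate block and leaving out each library.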

Additional observations from a re-analysis of the deposited data

How the results depend on the processing

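Of the 21 tested peaks 0 were called, and 0 were called with no minimum, with a pseudocount of 5, with the replicate block or without any one library. The number was 2 with equal medians, 1 with equal totals, 1 after centring on strong peaks, 3 with weights from the reads and 2 at an adjusted p under 0.1. Replicate numbers are shared only as numbers (correlation of deviations -0.088 over tested peaks and 0.26 where the mean was 100 or more, 2 pairs), and with the replicate block the lowest adjusted p was 0.112, with 31 calls among all peaks instead of 45. Centring moved the median of all peaks from -0.04 to 0.18 and that of the 21 peaks from -0.27 to -0.06, so that the gap between them moved from -0.23 to -0.24. With weights from the reads the gap was -0.04. Without single libraries the median ranged from -0.37 to -0.17. The number past 2-fold was 10 at a ratio of 1.5, 0 when both replicates had to differ, 3 with equal totals, 1 after centring, and 3 to 5 without single libraries. The share of all peaks was counted only for the reported rule (7.42%), so these numbers have no comparison. The number of calls among all tested peaks was 45 and ranged from 0, with no minimum or without any one library, to 219 with weights, and was 137, 61, 78 and 131 with equal medians, equal totals, centring and an adjusted p under 0.1.

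Some log2 differences changed sign, each of them between -0.28 and 0.30 in the reported fit except 0.97 at *Megf10*. With weights from the reads they were -0.01 at *Id2*, -0.10 at the *Mef2d* start, -0.02 at *Ncam1* (+5971), -0.01 at *Sgca* and 0.23 at *Vim*. After centring they were 0.06 at *Six4* and 0.02 at *Eya4*, both below the shift of all peaks. Leaving out single libraries gave -0.10 to 0.21 at *Id2*, -0.35 to 0.58 at the *Mef2d* start, -0.35 to 0.70 at *Ncam1* (+5971), -0.07 to 0.49 at *Pax3*, -0.31 to 0.55 at *Sgca*, -0.38 to 0.06 at *Six4*, -0.34 to 0.94 at *Tpm2*, -0.32 to 2.26 at *Megf10* and -0.81 to 0.26 at *Pax7*. At 8 of these 9, all but *Tpm2*, the sign changed without control replicate 2. The cause was not tested. Depth limits weak peaks most in control replicate 2, with a median of 4.91 reads per peak.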
